A study of Drosophila melanogaster with 2 samples.

Results

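The genes of the ecdysone receptor complex and of 8 hormone-related nuclear receptors were examined for binding of the transcription factor Dorsal (dl) in whole Drosophila melanogaster larvae. The 10 genes were taken by name and were EcR, usp, Hr3, Hr4, Hr38, Hr39, Hr78, ftz-f1, svp and ERR, out of 13945 protein-coding genes annotated on the chromosome arms. Each gene was read from 5 kb before to 5 kb after its body, which gave 439.2 kb in all. These windows held 30 of the 2718 peaks in the authors' thresholded list and 203 of the 29999 candidate regions called on the pooled replicates.

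There was 1 group, dl-eGFP ChIP larvae, with 2 biological replicates numbered 3 and 1. The animals were wandering larvae of the third instar, males and females pooled, of unknown age, from the transgenic strain dl-small-GFP, in which GFP is fused to the C terminus of dl-RC. Precipitation used an antibody against GFP per the description, although another label field gives dl. The sources used here do not name the promoter that drives the fusion protein or the tissues that hold it, and in a whole animal a strong signal in few cells and a weak one in many cannot be told apart. No second condition was assayed, so nothing below compares treatments, and shares are set beside all genes or all regions without a test.

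Nuclear receptors are transcription factors that hold a zinc finger domain for DNA binding and, in most, a pocket for a small lipophilic ligand. In flies, pulses of the steroid 20-hydroxyecdysone time moulting and metamorphosis through a heterodimer of EcR and usp, the orthologue of the vertebrate retinoid X receptors. The receptor switches on early genes and a set of early-late genes, many of which code for further nuclear receptors that repress or induce the next set, so that the hormone pulse is read as a sequence. Wandering larvae stand shortly before the pulse that starts pupariation. Dorsal is an NF-kB family factor of the Toll pathway, known for dorsoventral patterning of the embryo and for immune responses.

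Of the 203 candidates in the windows, 30 were in the thresholded list, or 14.8% (95% interval 10.2 to 20.4%), against 8.98% of all 29970 candidates on the arms. All intervals on shares are exact Clopper-Pearson intervals and cover only the counting of regions. The thresholded list is the part of the pooled list with the highest signal, the authors' measure of ChIP enrichment over control. A peak therefore means a pooled signal of at least 73.3. The members' 30 peaks had a median signal of 152.4 and ranged between 73.7 and 432.4, against a median of 118.7 for all 2690 peaks on the arms. The 173 other candidates of the windows had signals between 20.8 and 71.4, with a median of 30.5.

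Peaks were unevenly spread over the genes. EcR held 12 peaks among 75 candidates. Hr4 held 5 among 23 and ftz-f1 held 5 among 29, while Hr3 held 4 among 17 and Hr39 held 2 among 22. Hr38 and svp held 1 peak each, among 14 and 21 candidates. No peak lay in the windows of usp, Hr78 or ERR. Thus 7 of the 10 genes had a peak in the window, against 23.1% of protein-coding genes. The members differ in size, and longer windows hold more summits. The 7 genes with a peak are all longer than 20 kb, a length at which 51.8% of 1013 coding genes had a peak, and the 3 without one are all shorter than 4 kb, a length at which 16.4% of 9741 genes had one.

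**Figure D1:**
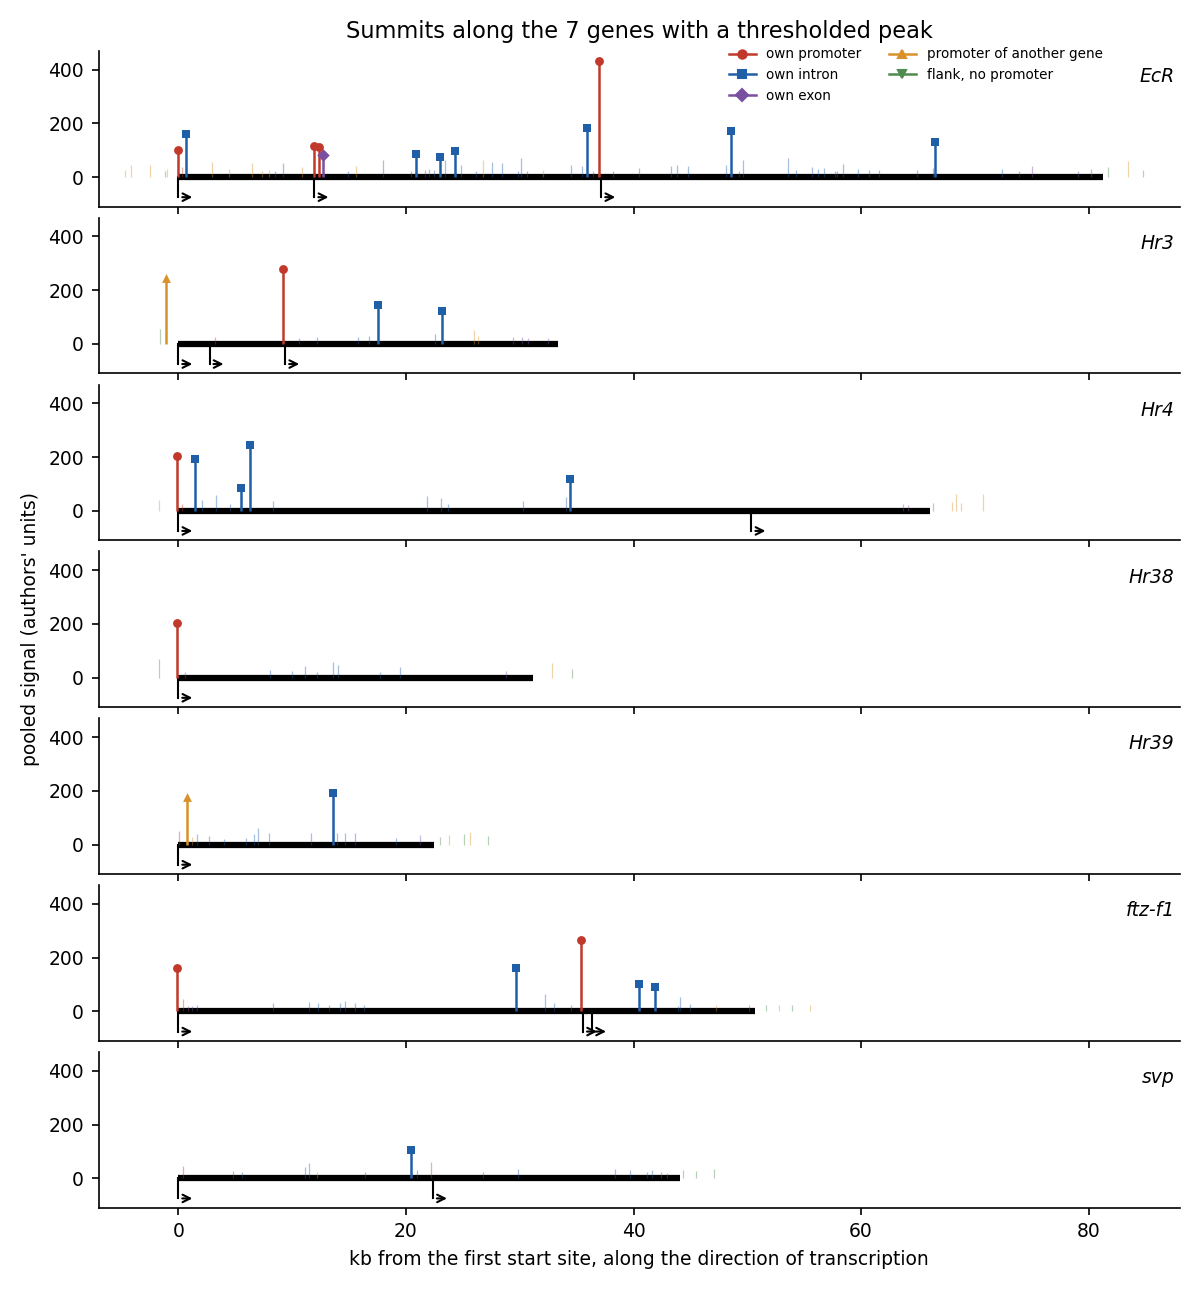
Pooled signal (authors' units, vertical axis) of every candidate summit along the 7 genes with a thresholded peak, against the distance in kb from the most upstream start site in the direction of transcription. The black bar is the gene body, bent arrows are start site clusters, stems with a symbol are thresholded peaks coloured by class, and faint short stems are candidates that did not pass. EcR has a peak at each of its 3 start site clusters and the strongest one, at 432.4, stands at the most downstream of them.

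The sequences below surround 6 of the 30 peak summits. They show promoter peaks with and without a GAGAGAG repeat but only intron peaks with it, while 12 of all 18 intron peaks held it. The promoter peaks of highest signal, at EcR-RB and Hr3-RA, are not shown, and these had 0 and 2 matches of that repeat within 100 bp of the summit. The sequences hold 201 bases each, read 5′ to 3′ on the strand of the gene from the RefSeq copy of dm6. Capitals mark GAGAGAG or its complement CTCTCTC. The first is the promoter peak next in signal, at the start sites of ftz-f1-RC and ftz-f1-RD, and it is followed by the promoter peak of ftz-f1-RB, 35.6 kb upstream in the same gene, by those of Hr4 and Hr38, by the strongest intron peak of Hr4, and by the 1 peak of svp.
ftz-f1-RC and RD promoter, chr3L:18765821-18766021, minus strand: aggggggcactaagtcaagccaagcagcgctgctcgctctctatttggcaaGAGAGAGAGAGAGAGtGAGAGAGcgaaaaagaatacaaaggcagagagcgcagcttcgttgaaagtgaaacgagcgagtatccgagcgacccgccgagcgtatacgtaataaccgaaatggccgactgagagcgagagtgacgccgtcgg
ftz-f1-RB promoter, chr3L:18801329-18801529, minus strand: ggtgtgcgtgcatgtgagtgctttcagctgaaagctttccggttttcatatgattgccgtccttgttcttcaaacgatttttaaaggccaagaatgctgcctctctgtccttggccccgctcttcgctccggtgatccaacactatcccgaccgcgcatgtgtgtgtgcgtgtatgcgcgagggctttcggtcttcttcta
Hr4 promoter, chrX:1941746-1941946, plus strand: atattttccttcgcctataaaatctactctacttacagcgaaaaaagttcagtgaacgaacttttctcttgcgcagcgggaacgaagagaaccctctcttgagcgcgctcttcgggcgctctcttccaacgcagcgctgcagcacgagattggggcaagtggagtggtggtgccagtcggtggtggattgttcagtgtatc
Hr38 promoter, chr2L:20714594-20714794, minus strand: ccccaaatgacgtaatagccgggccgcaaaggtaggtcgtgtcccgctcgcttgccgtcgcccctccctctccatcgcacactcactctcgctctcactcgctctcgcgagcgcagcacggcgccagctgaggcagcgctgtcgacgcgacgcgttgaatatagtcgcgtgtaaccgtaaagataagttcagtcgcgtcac
Hr4 intron, chrX:1948164-1948364, plus strand: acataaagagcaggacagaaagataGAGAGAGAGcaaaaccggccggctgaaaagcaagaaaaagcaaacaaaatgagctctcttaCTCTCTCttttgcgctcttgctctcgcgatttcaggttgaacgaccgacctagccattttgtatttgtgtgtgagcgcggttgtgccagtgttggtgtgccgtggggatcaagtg
svp intron, chr3R:12279092-12279292, plus strand: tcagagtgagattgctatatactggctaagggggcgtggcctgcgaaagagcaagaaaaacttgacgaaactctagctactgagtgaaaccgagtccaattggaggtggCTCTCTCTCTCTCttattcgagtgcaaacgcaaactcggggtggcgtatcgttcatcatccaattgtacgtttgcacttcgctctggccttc
The ftz-f1-RC promoter held 6 overlapping or separate matches, the Hr4 intron 3 and the svp intron 4. The ftz-f1-RB, Hr4 and Hr38 promoters held none in these 201 bases.

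Promoters of the receptor genes passed more often than their introns. A summit within 500 bp of an annotated start site of the gene itself was called an own promoter. Of 16 candidates at own promoters 9 were peaks, or 56.2% (95% interval 29.9 to 80.2%), against 21.8% of 6378 candidates at promoters of protein-coding genes. Of 121 candidates in own introns 18 were peaks, or 14.9% (95% interval 9.06 to 22.5%), against 5.97% of 13448 candidates in any intron. The windows also reached promoters of other genes, where 2 of 33 candidates were peaks, or 6.06% (95% interval 0.743 to 20.2%). Taking every promoter in the windows together, 11 of 49 candidates passed, or 22.4%, against 20.3% of 7330 candidates at any promoter, a share within the interval of 11.8 to 36.6%. Of 18 candidates in own exons 1 passed, and none of 15 in flanks away from promoters did (95% interval for 0 of 15 up to 21.8%). Over all candidates on the arms 8.98% passed. Shares for exons and flanks over the arms are not given here, so these counts are not read as particular to the receptor genes.

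EcR supplied 12 of the 30 peaks, and the shares were recomputed over the other 9 genes. There 18 of 128 candidates passed, or 14.1%, with 5 of 11 at own promoters, or 45.5%, and 11 of 72 in own introns, or 15.3%.

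**Figure D2:**
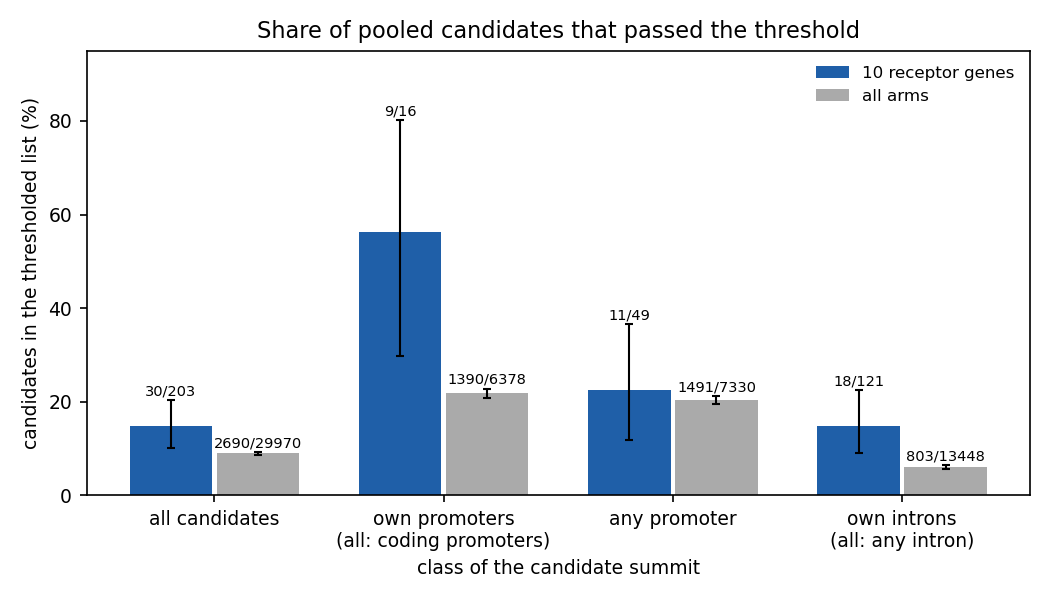
Percent of pooled candidates in the thresholded list (vertical axis) for the 10 receptor genes (blue) beside all arms (grey), by class of the summit, with exact 95% intervals and the counts above each bar. Own promoters passed in 56.2% of cases beside 21.8% of coding promoters, while any promoter in the windows passed in 22.4% beside 20.3%.

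A peak at an own promoter was present in 5 of the 10 genes, EcR, Hr3, Hr4, Hr38 and ftz-f1, against 8.83% of coding genes. Among coding genes longer than 20 kb, which all 5 are, 34.8% had one, and among those shorter than 4 kb 3.11%. Start sites within 100 bp of each other were joined into clusters, of which the 10 genes have 22. A peak lay at 8 of them, or 36.4%, against 8.46% of the 18922 clusters of coding genes. Shares of clusters by gene length are not given here, and 7 of the 10 genes but only 1013 of all 13945 coding genes are longer than 20 kb. Of the 9 promoter peaks, 8 had their summit upstream of the start site. Distances were between 29 and 402 bp.

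Among the member peaks, those at own promoters had the higher median signal. It was 201.6 with a range of 100.6 to 432.4, against 125.8 and 73.7 to 243.8 for the 18 intron peaks. Medians by class over all arm peaks are not given here, so the difference is not read as particular to these genes. The ranges overlap, and 1 intron peak of Hr4 exceeded all but 3 promoter peaks. Intron peaks lay between 678 bp and 29.3 kb from the nearest start site of their own gene, with a median of 7.25 kb, and 14 of the 18 were more than 2 kb away.

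**Figure D3:**
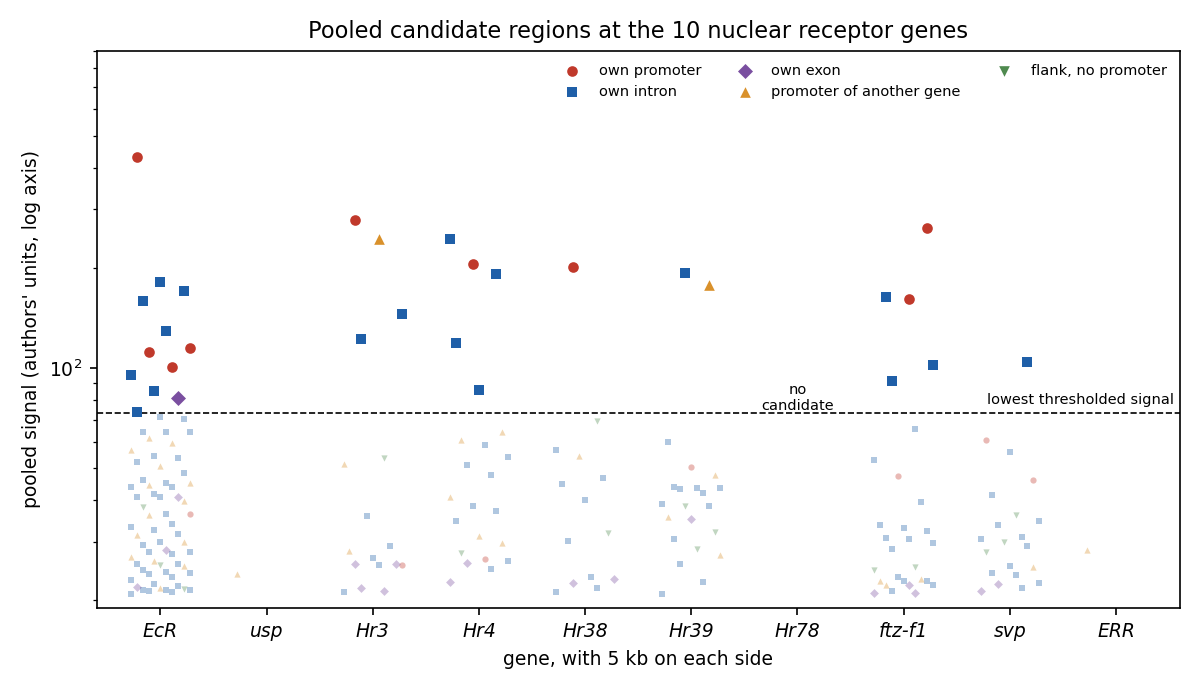
Pooled signal (authors' units, log axis) of each candidate region in the windows of the 10 genes, with large symbols for thresholded peaks and small faint ones for candidates that did not pass. The dashed line is the lowest signal in the thresholded list, 73.3. The usp and ERR windows hold 1 candidate each, below 30, and Hr78 holds none.

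EcR codes for the ligand-binding partner of the receptor and makes isoforms that differ in their N terminus from separate start sites. All 3 of its start site clusters had a peak. The peak at the start site of EcR-RB, EcR-RC and EcR-RG, on chromosome 2R with its summit at 6132158, had the highest signal of all 30, 432.4, at rank 130 of the pooled list. It was 236 bp upstream of the start site and had signals of 187.2 in list A and 251.9 in list B, the lists called on 1 replicate each, at ranks 140 and 145. The start site of EcR-RD and EcR-RE, 12.0 kb downstream of the most upstream one, had 2 peaks. Their signals were 115.2 at 43 bp upstream and 111.5 at 402 bp downstream. The start site of EcR-RA, the most upstream, had a peak of signal 100.6 at 29 bp upstream. These 3 peaks were weaker than the one at EcR-RB in either list.

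The promoter peak of EcR-RA was among the least even of the 30 between the replicates. Its signal was 75.0 in list B, at rank 1312, and 17.2 in list A, at rank 10148. The peak 402 bp downstream of EcR-RD stood at rank 1398 in list B and 3118 in list A, while the one 43 bp upstream stood at ranks 1817 in list A and 1664 in list B. Thus the EcR-RB promoter ranked alike in both lists, and the EcR-RA promoter rested mainly on list B.

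In its introns EcR held 7 peaks with signals of 73.7 to 181.8. The strongest, 181.8, lay 1.24 kb upstream of the EcR-RB start site and stood at rank 570 in list B and 2312 in list A. The next, 170.0, lay 11.3 kb downstream of that start site, and the regions of list A (rank 467) and list B (rank 739) overlapped it without holding its summit. The farthest, 129.7, lay 29.3 kb downstream, with rank 897 in list A and 1571 in list B. An intron peak of 159.3 lay 678 bp downstream of EcR-RA and ranked 755 in list A and 1427 in list B. The promoter peak of EcR-RA was below this intron peak in the pooled list and in list A, with signals of 17.2 and 84.1 in list A, but slightly above it in list B, with signals of 75.0 and 71.5. Another, of 85.4, ranked 1581 in list B and 7715 in list A. The 1 exon peak of EcR had a signal of 81.3, 735 bp downstream of EcR-RD.

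The EcR gene encloses a group of transfer RNA genes, and its upstream flank reaches others. Of the 14 candidates in its window at promoters of other genes, 9 were nearest to a transfer RNA gene, inside EcR or in that flank. Their signals were 21.8 to 61.8, and none of the 14 was in the thresholded list. The share of candidates at transfer RNA promoters that passed over the arms is not given here, so this count is not read as particular to EcR. EcR also holds the candidates closest to the threshold. An intron candidate of signal 73.7 at rank 2699 was just inside, and one of 71.4 at rank 2824 was just outside.

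With 12 peaks EcR had more than all but 6 of the 13945 coding genes, at 1.32 peaks per 10 kb of window. Per length it was less extreme, since 5.01% of coding genes were as dense or denser. Of its 12 peaks, 5 were at or above the median signal of the thresholded list, which by definition splits that list evenly. The other genes had 4 of 4 (Hr3), 3 of 5 (Hr4), 3 of 5 (ftz-f1), 2 of 2 (Hr39), 1 of 1 (Hr38) and 0 of 1 (svp). The 3 coding genes most like EcR in the numbers of own promoter and intron peaks and the highest signal of each, among 432 genes of 40.6 to 162.4 kb, were shn, SNF4Agamma and Pdp1. They held 10, 8 and 11 peaks. The shn gene, which codes for a zinc finger factor of the BMP pathway, had its strongest promoter peak at 429.3 and its strongest intron peak at 203.6, and a distance to EcR of 0.50 over the 4 values, each as log2(value + 1) divided by its SD over the genes compared, against 0.89 for SNF4Agamma and 0.90 for Pdp1.

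usp codes for the heterodimer partner, and no thresholded peak lay in its 13.5 kb window. The single pooled candidate had a signal of 24.0 at rank 22682 and lay 5 bp from the start site of the neighbouring gene Actn. List A held 2 regions at the start sites of usp itself, at ranks 19217 and 29123, and list B held none. The best region in the window was at rank 10373 in list A and 20139 in list B. The members of the EcR and usp pair therefore stood at opposite ends of the 10 genes, with 12 peaks in 91.2 kb and none in 13.5 kb.

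Among the early-late and prepupal factors, Hr3, an orthologue of the vertebrate ROR receptors that represses early genes and induces ftz-f1, had 4 peaks. The promoter peak of Hr3-RA, Hr3-RF and Hr3-RH had a signal of 278.2, with the summit at 10228106 on chromosome 2R, 149 bp upstream of the start site. It ranked 423 in list A and 370 in list B. The summit is also 149 bp from the start of CG46321, so this promoter peak cannot be assigned to Hr3 alone. The start sites of Hr3-RD and of Hr3-RC and Hr3-RI had no peak within 500 bp. A peak of 243.5 lay 1065 bp upstream of Hr3-RD, at the promoter of the non-coding gene lncRNA:CR45265, with rank 511 in list A and 648 in list B. The 2 intron peaks had signals of 145.5 and 121.9. The stronger one, 8.18 kb downstream of Hr3-RA, ranked 990 in list A and 1328 in list B. The weaker one ranked 1310 in list A and 2833 in list B.

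Hr4, an early-late receptor that represses early genes, is transcribed from 2 start site clusters, 50.4 kb apart. The upstream cluster, with 7 of the 9 transcripts, had a peak of 205.6, 94 bp upstream, at rank 552 in list A and 660 in list B. The downstream cluster, of Hr4-RE and Hr4-RF, had neither a peak nor a candidate within 500 bp. Hr4 held the strongest intron peak of the 10 genes, 243.8, located 6.32 kb downstream of the upstream cluster, with signals of 111.9 in list A and 128.4 in list B. Intron peaks of 191.4 and 85.7 lay 1499 and 5507 bp downstream of the same cluster, and one of 119.0 lay 15.9 kb upstream of Hr4-RE. Hr4 is thus the 1 gene of the 5 whose strongest peak was not at its promoter.

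Hr39, a paralogue of ftz-f1, had 2 peaks and none at its own start site. An intron peak of 193.6 lay 13.6 kb downstream, with rank 734 in list A and 513 in list B. The other, 178.0, lay 723 bp downstream of the start site and 328 bp from mir-9374, and ranked 758 in list A and 868 in list B. The candidate nearest to the start site, 30 bp downstream, had a pooled signal of 50.5 at rank 4949. It ranked 2211 in list B, within the best 2718, but 21892 in list A.

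ftz-f1 codes for the competence factor that prepares tissues for the prepupal response to ecdysone, and it had 5 peaks. The start site of ftz-f1-RC and ftz-f1-RD had a peak of 264.2, 177 bp upstream. It ranked 250 in list B, with a signal of 191.0, and 1380 in list A, with a signal of 57.4. The start site of ftz-f1-RB had a peak of 160.8, 120 bp upstream, at ranks 935 in list A and 948 in list B, and the summit was 117 bp from the start of lncRNA:CR45939. The start site of ftz-f1-RA, downstream of that of ftz-f1-RC, had no peak within 500 bp, and the nearest summit, that of the ftz-f1-RC peak, was 965 bp away. Intron peaks had signals of 163.1, 102.2 and 91.7. The strongest lay 5.87 kb upstream of ftz-f1-RC and ranked 997 in list A and 487 in list B.

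Hr78 is a further receptor needed around metamorphosis. It was the 1 gene whose window held no pooled candidate at all. List B held a region 9 bp from the start site of Hr78-RF, at rank 6917, and list A held 2 regions elsewhere in the window, the better one at rank 8044.

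Hr38 and svp code for receptors that can pair with usp in place of EcR. Hr38, the fly orthologue of the vertebrate NR4A receptors, had 1 peak, and it was at its start site, 106 bp upstream, with a signal of 201.6. It ranked 860 in list A and 585 in list B. None of the 8 intron candidates of Hr38 passed, and the highest of them had a signal of 56.9. A flank candidate of 69.4, 1.74 kb upstream, was just outside the threshold.

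svp, the orthologue of the COUP-TF receptors, had 1 peak, of signal 103.9, in an intron 1.92 kb upstream of the start site of svp-RA. It ranked 936 in list A, with a signal of 73.9, and 7552 in list B, with a signal of 29.9. Candidates at the start sites of svp-RC and of svp-RA had signals of 46.0 and 60.9 and did not pass. In svp, unlike Hr38, the only peak lay away from the start site, and it stood among the best regions of 1 list.

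ERR codes for the estrogen-related receptor, which in the fly switches metabolism toward glycolysis. Its window held no peak and 1 candidate of signal 28.5, 46 bp from the start site of the neighbouring gene MED24. List A held 2 regions at the start sites of ERR, at ranks 6066 and 7193, and list B held 3, at ranks 9527, 13164 and 29675. The 3 members without a peak thus had no region above rank 6066 in either list.

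The replicates were compared peak by peak over all 30. A region of list A held the summit of 28 peaks and one of list B that of 29. Of the 30 summits, 28 were in both, against 92.2% of all 2690 peaks on the arms. The remaining ones were matched by overlapping regions. Among the best 2718 regions of each list, 23 summits were found in list A and 23 in list B, with 19 in both, or 63.3% (95% interval 43.9 to 80.1%), against 58.3% of all 2690 peaks on the arms. All 9 own promoter peaks were among the best of list B, and 7 of the 9 among the best of list A, the exceptions being the EcR-RA promoter and the downstream peak of EcR-RD. Spearman's correlation of the signals in the 2 lists was 0.53 over the 30 peaks, which share a control and come partly from the same genes. The peaks were also chosen by a pooled signal that uses both replicates, and for 2 of them an overlapping region was used. The correlation over all arm peaks is not given here, so the value is not read as a measure of agreement between replicates. Of the 30 peaks, 19 ranked higher in list A and 11 in list B.

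**Figure D4:**
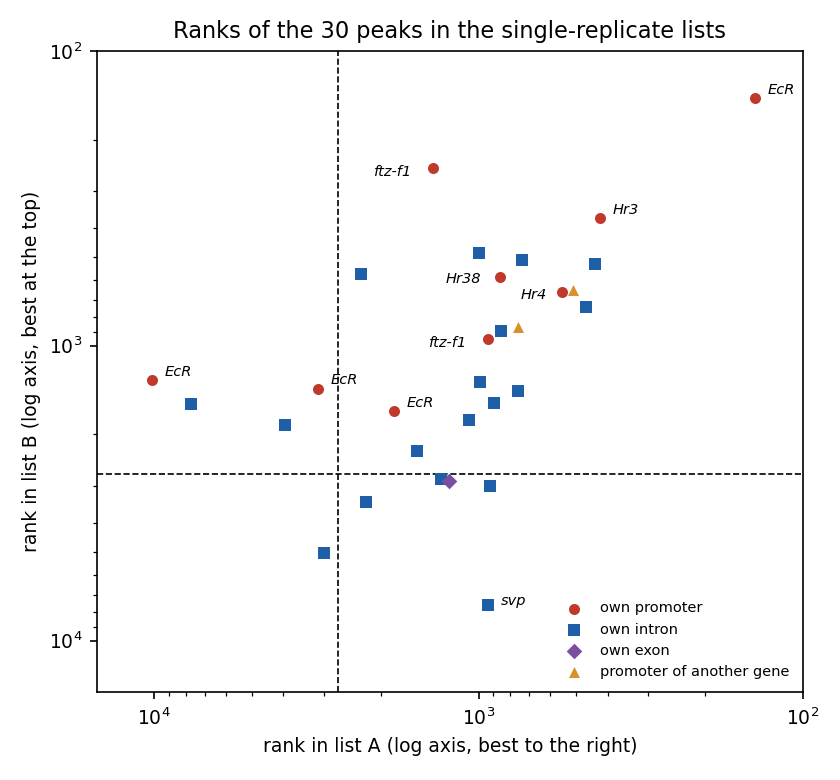
Rank of the 30 peaks in list A (horizontal log axis) and list B (vertical log axis), best ranks to the right and at the top, coloured by class, with dashed lines at rank 2718 and gene names at own promoters and at svp. For 2 peaks a rank is that of a region that overlaps the peak without holding its summit. The EcR-RB promoter is best in both lists at ranks 140 and 145, while the EcR-RA promoter is at 10148 in list A and the svp peak at 7552 in list B.

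Short motifs were counted on both strands within 100 bp of each summit. GAGAGAG, the repeat that GAGA factor is known to bind, was present in 17 of the 30 peaks, or 56.7%, against 43.9% of all arm peaks. By class it was in 12 of the 18 intron peaks, or 66.7%, against 46.5% of all intron peaks, and in 3 of the 9 own promoter peaks, or 33.3%, against 44.3% of all promoter peaks. EcR had it in 5 of 12 peaks and the other genes in 12 of 18. Of the members' candidates that did not pass, 15 of 173 held it, or 8.67%, against 5.58% of all arm candidates that did not pass. The numbers of member peaks are small, and these shares describe the windows without a test.

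The motifs of the receptors themselves were rare. AGGTCA, the core site of nuclear receptors, was in 2 peaks, or 6.67%, against 2.68% of arm peaks. One was the ftz-f1 intron peak of 91.7 and the other the upstream peak of Hr3 at lncRNA:CR45265. TCAAGGTCA, which contains AGGTCA and is the extended site of ftz-f1 and ERR, was in 0 of 30 (95% interval up to 11.6%) and in 4 of 2690 arm peaks. CACGTG, an E-box, was in 2 of 30, against 3.64%. The Dorsal motif of the NF-kB family was in 0 of 30 peaks, with the same interval, against 1.52% of arm peaks. It was in 6 of the 173 member candidates that did not pass, or 3.47%, against 1.39% of all 27280 arm candidates that did not pass. The median GC content within 100 bp of the member summits was 51.2%, against 49.8% for all arm peaks.

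Genes that act with these receptors were described from 4 lists. Shares over all coding genes, 23.1% with a peak and 8.83% with a promoter peak, and over those longer than 20 kb, 51.8% and 34.8%, stand beside these counts, which were not tested. Of 11 other nuclear receptors, 4 of them longer than 20 kb, 7 had a peak in the gene or its flanks and 4 had one at an own promoter. Eip75B, an early ecdysone gene that codes for the orthologue of Rev-erb, held 21 peaks, the strongest intron peak having a signal of 428.1. Hnf4, a receptor of lipid metabolism, had a promoter peak of 334.8. The receptors Hr51, Hr96, tll and eg had none.

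Of 8 other factors of the ecdysone and juvenile hormone response, 5 of them longer than 20 kb, all 8 had a peak, and 7 had one at an own promoter. Eip74EF, an early ETS factor, had 10 peaks with signals up to 814.4 in an intron and 586.5 at a promoter, both above the highest of the 10 receptor genes. br, the early zinc finger factor of metamorphosis, had 7, the strongest at 203.8 in an intron. Of 7 cofactors, 2 of them longer than 20 kb, 5 had a peak, led by tai, the coactivator of the EcR and usp complex, with 9 and a promoter signal of 391.0, and Smr, a corepressor, with 6.

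Of 12 genes of ecdysteroid synthesis, turnover and import, 2 had a peak, or 16.7%, below the 23.1% of all coding genes. Of the 12, 6 are shorter than 4 kb, a length at which 16.4% of coding genes had a peak. The 2 with a peak are longer, shd at 7.75 kb and Oatp74D at 24.6 kb. The gene shd, for the hydroxylase of the last step to 20-hydroxyecdysone, had 4 peaks. Of these, 1 was in an intron at 193.8 and 1 at its promoter at 110.3. Oatp74D, which imports the hormone into cells, had 2 peaks and a highest signal of 183.2. The genes of the preceding synthesis steps, nvd, spo, phtm, dib, sad and sro, had none, and phtm alone of these had a candidate. Of these 6 genes, nvd is the longest at 76.8 kb.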

How the data were processed

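ChIP-seq was carried out on 2 biological replicates of 1 group. The authors deposited 4 region lists in dm6. List A and list B used 1 ChIP alignment each, a pooled list used both, all with the control alignment, and a list thresholded by the irreproducible discovery rate was derived from these, per the description files. Nothing links list A or B to a replicate number. Aligner, caller, version numbers and cut-off were "not given in the sources used here", and the named control was not analysed here as a file. The signal values are the authors' own, deposited as enrichment of ChIP over control and not scaled between lists, so they were ranked within each list. The deposited −log10 q-values reached a ceiling of 3.54, shared by 23 of the 30 peaks, and were not used for ranking. The candidate lists hold 30000, 29999 and 29999 regions. Read depth is unknown, and so is the precision of single signals.

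Summits (1-based) were placed on genes of Ensembl release 115, without pseudogenes and transposable elements, and sequence came from RefSeq, with Python 3.11.15, pandas 2.3.3, numpy 2.4.6 and scipy 1.17.1. Classes were assigned in the order own promoter, promoter of another gene, own exon, own intron and flank. Of the listed pathway genes, 3 (DOR, phm and EcI) were found under the names TP53INP, phtm and Oatp74D. Distance between genes was taken over 4 scaled values. The assignment was tested on simulated positions. All 10 members are described, with the strongest promoter and intron peak of each in full. Members, lists and rules were chosen with earlier results of these data known. The dm3 lists were not used, since no dm3 annotation was at hand. Alternatives were other windows, promoter widths, overlap rules, a stricter threshold and each single list.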

Additional observations from a re-analysis of the deposited data

How the results depend on the processing

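Over 8 results and 35 alternatives, 33 values stayed within 1.5 times the count or within the interval of the share. These intervals are wide where counts are small, 29.9 to 80.2% for own promoters, so staying inside them is a weak check. The 30 peaks became 18 at or above the median signal of the thresholded list, where EcR kept 5 of its 12, Hr3 4 of 4 and svp 0 of 1. The 19 peaks among the best of both lists became 11 when only the best 1000 regions counted. Both changes follow by construction of a stricter rule. With the best 2718 regions of list B alone or of list A alone, there were 31 and 31 regions in the windows, 6 and 6 members with one at an own promoter, 9 and 8 start site clusters with one, and GAGAGAG in 41.9% and 64.5%. The member added was Hr39 in list B and svp in list A, and svp had no region among the best of list B, so its peak rests on list A. EcR had 14 regions in list B and 9 in list A. The share of own promoters that passed was 8 of 10 within 250 bp and 12 of 24 within 1000 bp. The overlap of at least 1 bp, chosen after seeing the data, gave 20 peaks among the best of both lists. No paired analysis was possible because there was 1 group. With 2 replicates, no read counts and no second condition, differences between genes in signal carry no error.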

Other observations

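Besides the 30 peaks, the windows held 13 regions among the best 2718 of a single list that met no thresholded peak. Of the 13 regions, 6 were in list A and 7 in list B. The share of such regions over the whole lists is not given here, so their number is not read as particular to these genes. EcR held 5, with the best at rank 1638 in list B, in an intron 5900 bp from a start site. ftz-f1 held 3, with the best at rank 1552 in list B, 3299 bp from a start site. At own start sites there were 2, at Hr39 (rank 2211 in list B, 30 bp away) and at svp-RA (rank 2718 in list A, 12 bp away).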
